A study of Mus musculus with 14 samples.

Results

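Hub regions are the places on the mouse genome where most of 13 blood transcription factors had ChIP-seq peaks on top of each other in 1 progenitor cell line. ChIP-seq pulls down the DNA that a protein is fixed to and sequences it, and a peak is a stretch where the sequenced fragments pile up. All peaks of the 13 lists on the 19 autosomes and X that touched or overlapped were merged, and a merged region was called a hub when 10 or more factors had a peak in it. The members were thus chosen by the measured peaks themselves. This gave 2831 hubs among 121980 merged regions (2.32%), built from 279955 peaks. Every deposited peak was 400 bp wide, and the hubs spanned 425 to 1572 bp.

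The cells were Hoxb8-FL, a mouse multipotent haematopoietic progenitor line that carries a conditional Hoxb8 oncoprotein and is labelled as resembling lymphoid-primed multipotent progenitors (LMPP-like). All libraries came from cells kept in RPMI medium with serum, mercaptoethanol, estradiol, FLT3 and antibiotics, with no further treatment. There was 1 library per factor (Runx1, Gata2, Meis1, Lmo2, Tal1, Lyl1, Spi1, Erg, Fli1, Gfi1, Gfi1b, Cebpa and Cebpb) and 1 with rabbit IgG, of which no list was used here. Chromatin was fixed for 10 min in 0.4% or 1% formaldehyde, and the sources used here say neither which library had which concentration nor whether the line is a single clone. The lists hold positions and no read counts, so depth is unknown, and with no expression values the labelled cell type was not checked against its markers. The 13 lists come from 1 culture system and the hubs are regions, not replicates, so no test was made and no p-value is given. The 95% intervals below are exact (Clopper-Pearson), cover counting error only, treat regions as independent, and say nothing of a second culture or a second immunoprecipitation.

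In blood progenitors these factors belong to several DNA-binding families: Spi1 (PU.1), Erg and Fli1 are ETS proteins, Tal1 and Lyl1 are basic helix-loop-helix proteins joined to DNA-bound partners by the bridging protein Lmo2, Cebpa and Cebpb are leucine-zipper proteins of the myeloid lineage, and Gfi1 and Gfi1b are zinc-finger repressors. Runx1 is a runt-domain protein needed for the first blood stem cells, Gata2 a zinc-finger factor of stem and mast cells, and Meis1 a homeodomain partner of Hox proteins. Regions that bind many of them at once are known as candidate enhancers of blood genes, which often lie far from the gene they act on.

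A small set of hubs overlapped promoter windows, and their sequences are shown because the later results on base composition and motifs turn on such windows. Each is the RefSeq promoter of GRCm38.p6 from 250 bases before to 50 after the annotated start site, 5′ to 3′ along the gene. Capitals mark matches to the motifs searched below, other than the short GGAA and CANNTG. They are marked also where a window runs past its hub, as with the first capitals of Gm35889 and of Cd53. The 4 windows of the hubs with the most factors come first. Gm35889 (chr7:35156787-35157086, minus strand) is a predicted gene whose window met a hub with all 13 factors. 2310010J17Rik (chr7:90129425-90129724, minus), Cd33 (chr7:43533122-43533421, minus, a sialic acid receptor of myeloid cells) and Cd53 (chr3:106790100-106790399, minus, a leukocyte tetraspanin) each met a hub with 12 factors that lacked Gata2.
Gm35889: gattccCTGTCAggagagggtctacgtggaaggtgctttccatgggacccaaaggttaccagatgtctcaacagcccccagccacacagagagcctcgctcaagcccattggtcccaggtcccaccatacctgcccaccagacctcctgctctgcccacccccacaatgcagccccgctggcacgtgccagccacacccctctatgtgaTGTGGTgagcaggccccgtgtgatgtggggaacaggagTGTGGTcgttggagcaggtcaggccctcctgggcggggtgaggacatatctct
2310010J17Rik: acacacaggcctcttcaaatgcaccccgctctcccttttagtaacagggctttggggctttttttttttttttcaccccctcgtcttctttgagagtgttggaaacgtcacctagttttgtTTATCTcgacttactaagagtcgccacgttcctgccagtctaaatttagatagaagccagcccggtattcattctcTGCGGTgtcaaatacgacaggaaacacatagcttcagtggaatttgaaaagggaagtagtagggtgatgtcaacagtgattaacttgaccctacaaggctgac
Cd33: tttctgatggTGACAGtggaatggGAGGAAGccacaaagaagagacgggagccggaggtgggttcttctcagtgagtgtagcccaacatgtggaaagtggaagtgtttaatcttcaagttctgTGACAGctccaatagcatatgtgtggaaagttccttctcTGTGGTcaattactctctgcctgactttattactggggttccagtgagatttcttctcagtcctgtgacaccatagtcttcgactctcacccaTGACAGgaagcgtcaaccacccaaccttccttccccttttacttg
Cd53: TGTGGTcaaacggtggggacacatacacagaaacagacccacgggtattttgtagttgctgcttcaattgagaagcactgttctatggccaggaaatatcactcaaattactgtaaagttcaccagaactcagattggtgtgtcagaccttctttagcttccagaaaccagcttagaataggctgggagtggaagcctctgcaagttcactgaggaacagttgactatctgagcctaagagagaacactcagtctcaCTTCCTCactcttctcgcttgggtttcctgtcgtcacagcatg

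The other windows were chosen after their values were seen, for genes with a clear role in blood and 1 with a general role. Cbfa2t3 (chr8:122699060-122699359, minus) encodes a corepressor that joins Tal1 complexes. Gfi1b (chr2:28621933-28622232, minus) is the gene of 1 of the 13 factors. Mmp8 (chr9:7558179-7558478, plus) encodes neutrophil collagenase and Mpo (chr11:87793534-87793833, plus) myeloperoxidase of neutrophil granules. Psmc1 (chr12:100109952-100110251, plus) encodes an ATPase subunit of the proteasome.
Cbfa2t3: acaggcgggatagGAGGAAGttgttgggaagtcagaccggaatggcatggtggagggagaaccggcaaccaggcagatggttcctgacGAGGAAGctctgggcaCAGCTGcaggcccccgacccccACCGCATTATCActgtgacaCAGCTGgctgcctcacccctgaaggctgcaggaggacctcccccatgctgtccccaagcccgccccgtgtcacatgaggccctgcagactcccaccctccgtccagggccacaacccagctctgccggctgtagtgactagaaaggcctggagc
Gfi1b: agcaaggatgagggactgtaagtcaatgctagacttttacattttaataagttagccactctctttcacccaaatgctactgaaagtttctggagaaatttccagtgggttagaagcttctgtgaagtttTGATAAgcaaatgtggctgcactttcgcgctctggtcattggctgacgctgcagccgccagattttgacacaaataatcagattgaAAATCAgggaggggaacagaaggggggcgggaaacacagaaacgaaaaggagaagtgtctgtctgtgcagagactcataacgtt
Mmp8: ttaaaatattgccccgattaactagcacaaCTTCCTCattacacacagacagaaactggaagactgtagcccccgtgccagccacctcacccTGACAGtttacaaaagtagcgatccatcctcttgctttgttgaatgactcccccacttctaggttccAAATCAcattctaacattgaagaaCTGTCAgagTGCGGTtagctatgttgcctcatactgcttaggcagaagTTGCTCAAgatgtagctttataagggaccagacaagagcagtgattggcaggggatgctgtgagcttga
Mpo: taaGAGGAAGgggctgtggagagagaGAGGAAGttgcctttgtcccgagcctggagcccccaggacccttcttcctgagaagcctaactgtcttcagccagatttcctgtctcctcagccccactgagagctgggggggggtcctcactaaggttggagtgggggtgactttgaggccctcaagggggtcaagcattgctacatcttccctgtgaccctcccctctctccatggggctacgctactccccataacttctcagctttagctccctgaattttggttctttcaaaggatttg
Psmc1: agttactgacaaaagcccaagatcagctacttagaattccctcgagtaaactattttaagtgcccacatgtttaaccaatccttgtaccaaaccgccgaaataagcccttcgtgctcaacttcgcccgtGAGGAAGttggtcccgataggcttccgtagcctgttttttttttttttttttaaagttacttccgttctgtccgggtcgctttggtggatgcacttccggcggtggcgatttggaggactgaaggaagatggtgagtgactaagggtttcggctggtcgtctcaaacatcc

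Matches differed between these windows, with positions counted from the start site as 0 and negative values upstream. The Mpo window held GAGGAAG, the longer form of the ETS motif that PU.1 prefers, at -247 and -224, and its hub of 10 factors lacked Gata2, Gfi1b and Meis1. The Cd33 window held GAGGAAG at -226, a Runx match at -88 and Meis matches (TGACAG) at -240, -127 and 5. The Gfi1b window held a Gata match at -120 and a Gfi match at -34, and its hub of 11 factors had Gfi1 and Gfi1b peaks but none of Gata2 or Erg. The Mmp8 window was the only 1 of the 9 with a C/EBP match, at -19, and its hub lacked Erg, Fli1 and Gata2. The Cbfa2t3 window held CAGCTG, a form of the E-box that basic helix-loop-helix proteins bind, at -146 and -104, in a hub that had Tal1 and Lyl1 and lacked Gata2 and Meis1. It also held a Gata match at -118. The Psmc1 window held a single GAGGAAG, at -121, another form of the E-box at -186, and neither CAGCTG nor a Gata match. Its hub lacked Lyl1 and Tal1 and held Gata2. Of the 9 windows only that of Cbfa2t3 held CAGCTG, although all of their hubs except that of Psmc1 had Tal1 and Lyl1. A match is a run of letters and does not show that a factor bound there.

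Micro-RNA genes next to hubs included some that are known from blood cells, and the main mature strands of these, chosen after the values were seen, are shown with the seed (bases 2 to 8, which pairs with target RNAs) in capitals, as in RefSeq on GRCm38.p6. Mir23a, Mir27a and Mir24-2 are neighbours on chromosome 8, Mir142 lies on chromosome 11 and Mir223 on X. The 10 mature strands of these 5 genes had 10 distinct seeds, so no pair shared one.
miR-23a-3p: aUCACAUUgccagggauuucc
miR-27a-3p: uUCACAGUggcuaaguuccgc
miR-24-3p: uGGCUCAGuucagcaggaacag
miR-142a-5p: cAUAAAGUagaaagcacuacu
miR-142a-3p: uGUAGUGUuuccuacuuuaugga
miR-223-3p: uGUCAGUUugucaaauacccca

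Hubs differed in which factors were absent. By the rule no more than 3 factors could be missing, and the counts below describe the peaks that chose the members. All 13 factors were present in 41 hubs, 12 in 573, 11 in 931 and 10 in 1286, while 1578 regions just outside the threshold had 9. Gata2, the shortest list with 3217 peaks on these chromosomes, was absent from 2623 hubs (92.7%, interval 91.6 to 93.6). Meis1 was absent from 1020 hubs (36.0%, 34.3 to 37.8) and Gfi1b from 933 (33.0%, 31.2 to 34.7). Gfi1 was missing in 15.8%, Erg in 15.1% and Runx1 in 9.64% of hubs. Spi1, Lyl1, Cebpa, Cebpb and Tal1 were each missing in 1.27% to 6.68%. Fli1 lacked a peak in only 14 hubs (0.495%) and Lmo2, which does not bind DNA itself, in 12 (0.424%). The lists of Lyl1 and Spi1 hold 8903 and 76378 peaks, and the part of list length in these counts was not tested.

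**Figure D1:**
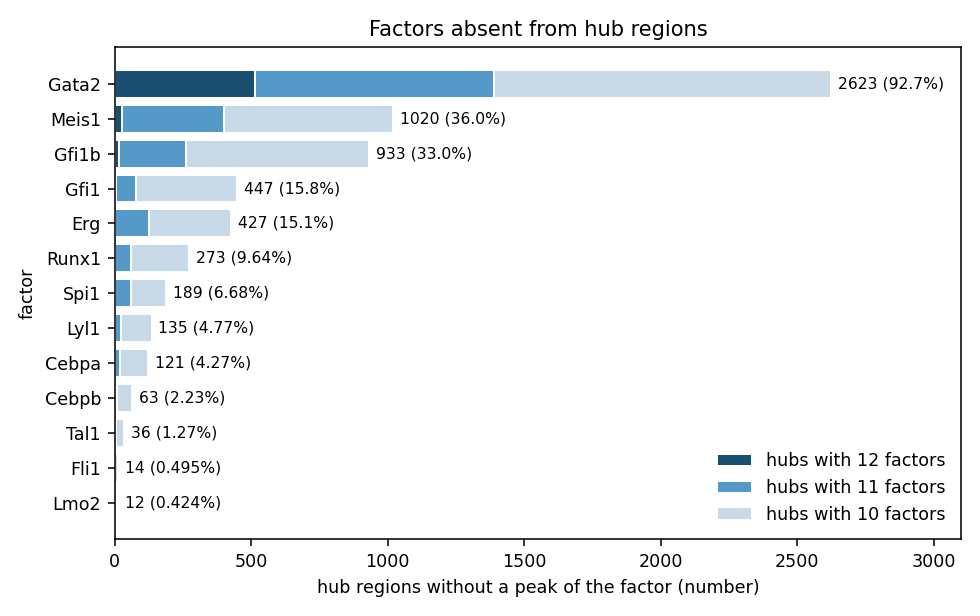
Number of the 2831 hubs (horizontal axis) that lack a peak of each factor (vertical axis), with the percentage of hubs beside each bar. Gata2 stands apart with 2623 hubs, followed by Meis1 with 1020 and Gfi1b with 933, and Fli1 and Lmo2 are at the low end with 14 and 12.

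Absence came in few combinations. Of 378 possible sets of up to 3 absent factors, 117 occurred, 34 of them in a single hub, and the 5 commonest held 1566 hubs (55.3%). Gata2 alone was missing in 515 hubs, Gata2 and Meis1 in 341, and Gata2, Gfi1b and Meis1 in 263. Gata2 with both Gfi1 and Gfi1b was missing in 230, and Gata2 with Gfi1b in 217. In all, 1805 hubs (63.8%) lacked nothing beyond Gata2, Meis1, Gfi1 and Gfi1b. Meis1 was the only factor missing in 27 hubs, Gfi1b in 16 and Gfi1 in 5, and Lmo2 in 1, which lay inside Runx1.

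Related factors were sometimes missing together. Gfi1 and Gfi1b were both missing in 255 hubs, out of 447 without Gfi1 and 933 without Gfi1b. Cebpa and Cebpb were both missing in 24, out of 121 without Cebpa and 63 without Cebpb. Lyl1 and Tal1 were both missing in 15, out of 135 without Lyl1 and 36 without Tal1. Erg and Fli1 were both missing in 11, so that 11 of the 14 hubs without Fli1 also lacked Erg, against 11 of the 427 without Erg.

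A missing factor was sometimes close by. Where Spi1 was missing, the nearest Spi1 peak lay at a median of 1.69 kb from the hub, and within 5 kb in 150 of 189 hubs (79.4%). Where Gata2 was missing, the nearest Gata2 peak lay at a median of 195 kb, and within 5 kb in 66 of 2623 hubs (2.52%). Among the other factors the median ran from 0.898 kb for Lmo2 to 32.4 kb for Lyl1. These distances move with list length, Spi1 having the longest list and Gata2 the shortest, and the part of length in them was not tested.

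The peaks of a hub were close to each other beyond the overlap that the rule demanded. The distance between the outermost midpoints in a hub had a median of 142 bp (quartiles 99 and 221 bp), with extremes of 25 and 1172 bp. In 731 hubs (25.8%) all midpoints lay within 100 bp, and in 215 they spread over more than 400 bp, the width of 1 peak. No factor had more than 1 peak in 2810 hubs, and 21 hubs held a second peak of some factor.

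Pairs of factors differed in how near their midpoints lay. Over the 78 pairs, Cebpa and Cebpb were closest, with a median of 16 bp in the 2671 hubs that held both. Lmo2 and Lyl1 followed at 17 bp, Lmo2 and Tal1 at 18 bp, Erg and Fli1 at 19 bp, and Lyl1 and Tal1 at 20 bp. Each of these pairs belongs to 1 DNA-binding family or to the Lmo2 complex, but the pairs that came next do not. These were Fli1 and Lmo2 at 21 bp, and Erg and Lmo2 and Fli1 and Lyl1 at 23 bp each. Spi1, an ETS protein like Erg and Fli1, stood 37 bp from Fli1 and 39 bp from Erg. In regions with 4 to 9 factors the medians were 14 bp for Cebpa and Cebpb, 19 bp for Lmo2 and Lyl1, 23 bp for Lmo2 and Tal1, and 22 bp for Erg and Fli1. Gfi1 and Gfi1b, the remaining pair of near relatives, stood 25 bp apart in hubs. The most distant pairs were Gata2 and Spi1 at 74 bp (183 hubs), Gata2 and Meis1 at 67 bp (119 hubs), and Meis1 and Spi1 at 63 bp. Measured from the median midpoint of the hub, Lmo2 lay most centrally at 12.5 bp, with Fli1 at 13.5 bp and Lyl1 at 14.5 bp. Meis1 lay farthest out at 41.5 bp, after Spi1 at 35.5 bp. The median midpoint includes the peaks of the factor itself and of its near partners, so a central place follows in part from the measure.

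**Figure D2:**
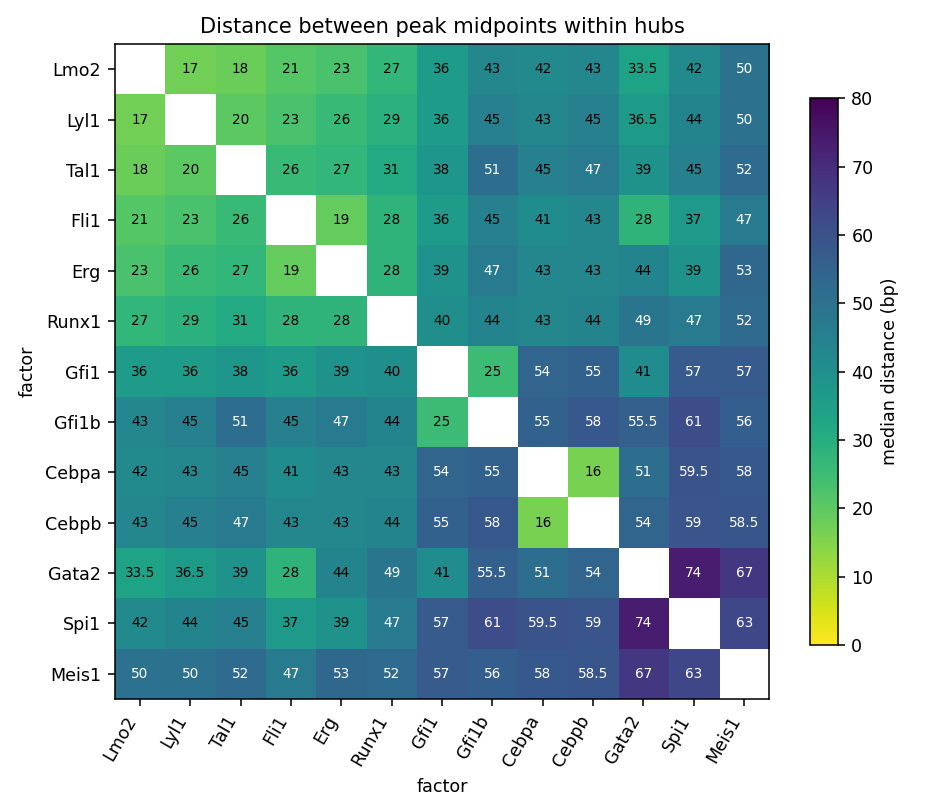
Median distance in bp between peak midpoints of each pair of factors in the hubs that hold both, as a grid of 13 by 13 factors in which lighter colour means a shorter distance. Cebpa with Cebpb (16 bp) and the Lmo2, Lyl1 and Tal1 block (17 to 20 bp) are closest, and Gata2 with Spi1 (74 bp) is the most distant.

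Peaks in hubs stood early in the lists as deposited. The meaning of the line order is not stated, so the place of a line is given only as its percentile, 0 at the first line. The Lmo2 peaks in hubs had a median percentile of 9.21, against 55.1 for Lmo2 peaks elsewhere, and 52.5% of hub Lmo2 peaks lay in the first 10% of the list. Fli1 stood at 14.3 in hubs against 55.4 elsewhere, and Tal1 at 14.5 against 57.3. The gap was smallest for Gfi1b (41.0 in hubs, 52.8 elsewhere) and Gata2 (38.3 in hubs, 50.7 elsewhere). For Lmo2 the median was 17.5 in regions with 9 factors, 12.3 in hubs with 10, 8.38 with 11, 6.08 with 12 and 1.92 with 13. The medians of Fli1, Tal1, Lyl1, Erg and Cebpb also fell at each of these steps, that of Fli1 from 28.0 to 1.08. Cebpa, Gata2, Gfi1, Gfi1b, Meis1, Runx1 and Spi1 had no such steady order. For Gfi1b these medians were 42.5, 44.2, 39.3, 38.3 and 43.6, and for Meis1 28.0, 26.5, 22.1, 21.7 and 24.6. Being in a hub and being early in a list were read from the same libraries.

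The place of a factor in its list also went with the absence of its relative. Fli1 peaks had a median percentile of 39.5 in the 416 hubs without Erg, against 12.02 in the 2401 with it. Tal1 peaks stood at 54.2 in the 120 hubs without Lyl1, against 13.5 with it. Cebpb peaks stood at 62.6 in the 97 hubs without Cebpa, against 27.4 with it, and Gfi1 peaks at 57.1 in the 678 without Gfi1b, against 28.1 with it. In each of these cases the remaining relative came later in its list where the other was missing. Of the 4 other pairs looked at, Lmo2 peaks stood at 13.8 in hubs without Runx1 and 8.81 with it, at 8.56 without Meis1 and 9.54 with it, and at 9.34 without Gata2 and 7.58 with it. Fli1 peaks stood at 16.6 in hubs without Spi1, also an ETS protein, and at 14.2 with it.

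Most hubs lay away from the ends of genes. The midpoint of 177 hubs (6.25%, 5.39 to 7.21) was within 1 kb of either end of a protein-coding gene. The share was 12.2% for regions with 7 to 9 factors, 22.3% with 4 to 6, 15.4% with 2 to 3 and 8.57% with 1, and 11.9% over all merged regions. The share of hubs therefore lay below that of every other class, and its interval did not reach theirs. It was 4.19% in hubs with 12 factors and 6.84% with 10, against 9.13% in the regions with 9 that fell just outside. Inside a protein-coding gene lay 1456 hubs (51.4%, 49.6 to 53.3), against 53.7% to 55.2% of the other classes and 54.2% of all merged regions. More than 100 kb from any such gene lay 259 hubs (9.15%), against 7.12% of regions with 7 to 9 factors and 11.3% with 1.

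By distance to start sites, hubs lay farther out than regions with 2 to 9 factors and nearer than those with 1. The start-site table was incomplete, with 17273 of the 21627 protein-coding genes and nothing on chromosome 18. Some distances, in every class, are therefore too long. On the 19 chromosomes with start sites in the table the hubs numbered 2744, with a median of 18.4 kb to the nearest start site listed. The medians were 15.1 kb for regions with 7 to 9 factors, 12.03 kb with 4 to 6, 15.9 kb with 2 to 3 and 21.01 kb with 1. Within 1 kb of a start lay 7.25% of hubs, 111 upstream and 88 downstream of it, against 13.9% of regions with 7 to 9 factors, 22.2% with 4 to 6, 14.9% with 2 to 3 and 7.70% with 1, the last inside the interval of the hubs (6.31 to 8.29). Between 10 and 50 kb lay 44.6% of hubs (42.7 to 46.5), against 34.4% to 39.3% of the other classes. The interval of the hub share at these intermediate distances lay above the share of each other class.

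Hubs that lacked a given factor were not all placed alike. Of the 36 hubs without Tal1, 7 lay within 1 kb of a gene end (19.4%, 8.19 to 36.0), against 6.08% of those with it. Of the 135 without Lyl1, 16 did so (11.9%, 6.93 to 18.5), against 5.97% with it. The hubs without Meis1 gave 8.33% (6.71 to 10.2), against 5.08% with it, and those without Erg 3.04% (1.63 to 5.15), against 6.82% with it. These 4 factors were picked after the values of all 13 were seen, and the difference itself was not tested. The hub at the Psmc1 promoter is an example without Lyl1 and Tal1.

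Hubs lay near other hubs. Within 50 kb of 1154 hubs (40.8%, 38.9 to 42.6) there was another hub, measured between midpoints. The same distance to a hub was met by 34.6% of regions with 7 to 9 factors, 29.6% with 4 to 6, 26.6% with 2 to 3 and 20.4% with 1, and by 24.2% of all merged regions. Within 10 kb the share was 15.7% for hubs and 5.88% for regions with 1 factor. The median distance to the nearest other hub was 85.3 kb for hubs, against 106 kb for regions with 7 to 9 factors and 207 kb with 1. The share was 37.9% for regions of 9 factors, just outside the threshold, and 40.4%, 42.0%, 40.0% and 36.6% for hubs of 10, 11, 12 and 13. The share with a hub nearby was thus higher in each of the 5 classes with more factors, but not at each added factor within the hubs.

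**Figure D3:**
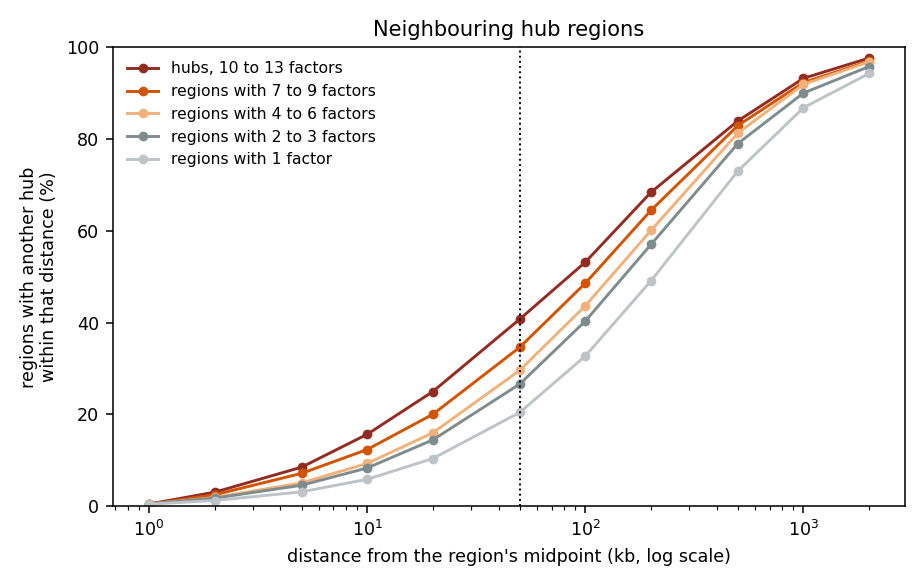
Share of regions in percent (vertical axis) with another hub within a given distance in kb (horizontal log axis), for hubs and for regions with 7 to 9, 4 to 6, 2 to 3 and 1 factors. At 50 kb the hub line stands at 40.8%, above the 34.6%, 29.6%, 26.6% and 20.4% of the other classes.

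Linking hubs at 50 kb or less gave 478 clusters of 2 or more and left 1677 hubs alone. There were 343 clusters of 2, 91 of 3, 31 of 4, 8 of 5, 4 of 6 and 1 of 7. The gap between neighbouring hubs on a chromosome had a median of 256 kb, with extremes of 0.742 kb and 24.9 Mb. Of 676 linked neighbours 62 (9.17%) had the same absent set, against 7.50% of all pairs of hubs.

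The cluster with 7 hubs lay at Runx1 (chr16:92800751-92922296, 122 kb), with 12, 11, 10, 11, 11, 12 and 10 factors along the chromosome. Of the clusters with 6, the tightest (chr17:29098985-29171595, 72.6 kb) lay at Cdkn1a, the p21 inhibitor of cyclin-dependent kinases, with Rab44 and Cpne5 as neighbours. Another (chr8:126755636-126850385, 94.8 kb) held no protein-coding gene, its hubs lying 80.7 to 167 kb from Tomm20, a mitochondrial import receptor, or Irf2bp2, a corepressor that binds Irf2. The third (chr6:129232707-129350449, 118 kb) lay at Cd69, an early activation marker of lymphocytes, and the lectin receptor genes Clec2m and Clec12a. The fourth (chr5:146585137-146704192, 119 kb) lay at Gpr12, an orphan receptor, and Usp12, a deubiquitinase. Genes of quite different roles thus stood beside the densest groups.

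The shortest stretch with 4 hubs measured 4.00 kb and lay just outside Irf2, an interferon regulatory factor (chr8:46848834-46852835). Its hubs had 12, 10, 13 and 10 factors, and those with 10 both lacked Lmo2. With the hub inside Runx1 and 1 at Dntt, 4 of the 12 hubs without Lmo2 lay at 3 genes. Il17ra, the interleukin-17 receptor, had 4 hubs within 13.2 kb, all inside the gene, with 11, 12, 11 and 12 factors. Dntt, the DNA polymerase that adds bases at V(D)J junctions in lymphoid progenitors, had 4 hubs in 17.4 kb, 3 inside the gene. The stretches at Slc11a1, a metal transporter of phagocytes, and Lrrk1, a kinase, measured 17.1 and 19.2 kb.

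Taken as a share of merged regions, hubs differed little between chromosomes except for X. Per Mb, hubs ran from 0.803 (chromosome 3) to 1.70 (chromosome 11) on the autosomes and were 0.109 on X. Merged regions were also sparse on X, with 16.0 per Mb against 40.3 (chromosome 3) to 71.1 (chromosome 11) on the autosomes. On the autosomes hubs made up 1.99% (chromosome 3) to 2.68% (chromosome 16) of merged regions, whereas X had 18 hubs among 2634 regions (0.683%, 0.405 to 1.08). Regions with 7 to 9 factors were also fewer on X, with 60 (2.28%), against 4.28% to 5.05% on autosomes. The share of each list that lay on X ran from 0.895% for Runx1 to 3.36% for Gata2. The 18 include hubs inside Cask, Il13ra1, Elf4 and Tlr7 and 1 lying 0.593 kb from Cfp (properdin of the complement system). The sources used here do not say how many copies of X the line carries, and the part of copy number in these shares was not tested.

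Nearest genes numbered 2002, counting protein-coding genes only, which is 9.26% of the 21627 in the annotation. A single hub was nearest to 1449 of them, 2 hubs to 374, 3 to 118 and 4 or more to 61. The 179 genes with 3 or more hubs took 634 hubs. When all RefSeq genes counted, the nearest was protein-coding for 1864 hubs (65.8%), a long non-coding RNA for 773 (27.3%), a pseudogene for 144 and a miRNA for 10. Of all RefSeq genes 43.6% are protein-coding, 25.6% long non-coding and 19.9% pseudogenes, so the long non-coding share lay near that of the annotation.

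Runx1 was nearest to 12 hubs, which spanned 555 kb, 5 of them inside the gene, and Zfp608, a zinc-finger gene, was nearest to 10 over 563 kb. Each of 7 genes was nearest to 6 hubs. Among them, Dusp6, a phosphatase of ERK kinases, and Pik3r1, the regulatory subunit of PI3-kinase, are signalling genes. Id2 encodes an inhibitor of E-box proteins, Zfp36l2 a protein that binds AU-rich messages, and Katnal1 a microtubule-severing subunit, and Serp2 also had 6. Their hubs lay at very different ranges: those of Id2 23.4 to 293 kb away and those of Zfp36l2 3.11 to 141 kb. At such distances the nearest gene names a hub and does not show which gene it acts on.

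Nearest to 5 hubs were Irf2, Gsdmc (a gasdermin), Lmo4 (a LIM-only relative of Lmo2), Septin9, Slc9a9 (an endosomal proton exchanger), Cyria, Rplp1 (a ribosomal stalk protein) and Sgms1 (sphingomyelin synthase). All 5 lay inside the gene at Slc9a9 and at Sgms1. The remaining genes of the leading 25, with 4 hubs each, were Aopep, Msrb3, Uaca, Abcc4, B3gnt2, Cd34, Cd69 and Cdh23. Cd34, the surface antigen of blood stem cells, had 2 of its hubs inside the gene, both with 12 factors. Blood-specific genes and genes with general roles were mixed in this group.

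The 41 hubs with all 13 factors had 41 different nearest genes, and 19 lay inside theirs. The 10 with the smallest span lay nearest to Gm38481, Coa7, Cc2d2b, Armc2, Erg, 4930512M02Rik, Zfp608, Slc7a10, Cd86 and Cblb. Cd86 is a costimulatory protein of antigen-presenting cells (chr16:36587932-36588436) and Cblb a ubiquitin ligase that dampens receptor signals (chr16:52081757-52082266). The hub named for Slc7a10, an amino acid transporter (chr7:35156439-35156939), is the one at the Gm35889 promoter shown above. It lay 37.4 kb downstream of the start site of Cebpa, the myeloid factor itself. An enhancer of Cebpa in this distance range is known from mouse myeloid progenitors.

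The genes of the factors themselves were nearly all near hubs. A locus here means the gene with 50 kb on either side, and 17.3% of all protein-coding genes had a hub in theirs. Of the 13 factor genes 11 did (84.6%, 54.6 to 98.1), with 28 hubs in all, and 27 of the 28 held a peak of that gene's own factor. Over all hubs the share with a peak was 7.35% for Gata2 and 64.0% (Meis1) to 99.6% (Lmo2) for the others, so that a high count follows in part from the rule. Runx1 had 7 hubs, Gfi1b 5, Spi1 4 and Meis1 3, so that 4 of the 13 had 3 or more, against 1.32% of all genes. The Gfi1b hubs lay at the start site and 3.05, 15.9, 22.5 and 30.3 kb downstream of it, and 4 of the 5 lacked Erg. Gfi1 had a hub 24.0 kb upstream with 12 factors and another 33.6 kb upstream with 11. The Meis1 hubs were all inside the gene and had 10, 13 and 12 factors, the Spi1 hubs 10, 11, 12 and 10.

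Gata2 had 2 hubs that differed in the presence of its own protein. The hub 27.6 kb upstream lacked Gata2 and Meis1, whereas the one inside the gene, 9.36 kb from the first start site, held Gata2 and lacked Gfi1b, Runx1 and Spi1. Single hubs lay inside Erg with all 13 factors, 1.38 kb from Lyl1 with 11, 11.9 kb from Lmo2 with 10 and 13.1 kb from Fli1 with 10. Cebpb had none, its nearest hub lying 63.6 kb away, and Tal1 had none, its nearest lying 404 kb away. The Tal1 gene was thus the factor gene farthest from a hub, although Tal1 peaks were present in all but 36 hubs.

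Other gene groups were described by the same count, without a test, since lists were drawn up with earlier results known. Neighbouring genes share hubs, so that counts of genes overstate independent loci. A hub counted at a gene lay in its locus, and another gene could be nearer, as for those at Esam, Egr3 and Selplg below. Among cytokine receptors 19 of 30 genes had a hub (63.3%, 43.9 to 80.1), in 32 distinct hubs, led by Il17ra with 4, and Il18r1 and Il21r with 3 each. Among mast cell genes 7 of 11 did (63.6%, 30.8 to 89.1), with 4 hubs each at the protease genes Mcpt4 and Mcpt8, which share them with Ctsg, and 2 at Mitf, a mast cell and pigment cell factor. Among megakaryocyte genes 9 of 15 did (60%, 32.3 to 83.7), with 4 at Itgb3, the platelet fibrinogen receptor subunit, and 2 each at Selp and Clec1b. With this flank the lower bounds of these 3 groups were above the share of all genes. So were those of the factor, B cell, stem cell, granulocyte, other regulator, AP-1, Egr and Klf, integrin and chromatin regulator lists. By nearest gene the mast cell share was 27.3% (6.02 to 61.0) and the megakaryocyte share 26.7% (7.79 to 55.1), against 9.26% of all genes, and with a flank of 10 kb the mast cell share was again 27.3%, against 7.98% of all. With 11 or more factors the cytokine receptor share was 43.3%, against 10.3% of all.

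Lineage genes of B cells were included as well: 11 of 19 had a hub (57.9%, 33.5 to 79.7), led by Blnk, an adaptor of the B cell receptor, with 6, Dntt with 4 and Ebf1, the early B cell factor, with 3. Blnk and Dntt are neighbours and share hubs, so the group rested on 17 distinct hubs. Granulocyte genes had 10 of 25 (40%), led by Ctsg with 4 and Mpo with 3. At Mpo the hubs lay 0.147 kb from the gene, 4.21 kb from it and 42.0 kb from it, with 10, 11 and 12 factors. Stem cell genes had 9 of 20 (45%), with 5 in the locus of Esam, an endothelial and stem cell adhesion protein, 4 at Cd34 and 3 at Flt3, the receptor of Flt3 ligand. None of the 5 lay within 10 kb of Esam or had it as the nearest gene. T cell genes had 4 of 16 (25%, 7.27 to 52.4), including 1 hub each at Cd28 and Zap70. Erythroid genes had 6 of 19 (31.6%), with 5 at Gfi1b and 1 at Nfe2.

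Regulators other than the 13 had 18 of 35 (51.4%), led by Etv6 and Zfpm1 with 3 each and Klf2 with 2. Of the AP-1, Egr and Klf genes 10 of 22 had a hub (45.5%), with 3 at Egr3, and of the interferon regulatory factors 4 of 9 (44.4%), with 5 at Irf2 and 1 at Irf1. Integrin and adhesion genes had 8 of 20 (40%), including 3 hubs each at Pecam1 and Selplg. Chromatin regulators had 9 of 25 (36%), including 3 hubs at Arid1a, a subunit of a chromatin remodeller. Of G1 cell cycle genes 7 of 18 did (38.9%), with 4 at Cdkn1a and 2 each at Cdk6 and Ccnd3. Bcl2 family genes had 6 of 18 (33.3%, 13.3 to 59.0), with 2 each at Bcl2l1 and Bid. Jak, Stat and Socs genes and Toll-like receptor genes each had 6 of 19 (31.6%), with 2 each at Socs3, Socs5, Stat6 and Ly96. With a flank of 10 kb the Bcl2 family share was 5.56% and the T cell share 6.25%, below the 7.98% of all genes. The erythroid, Jak, Stat and Socs, and Toll-like receptor shares were then 10.5% each. At that flank 17 of the 23 lists lay above the share of all genes.

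Groups not chosen for a role in blood lay near or below the share of all genes. Ribosomal protein genes had 6 of 30 (20%, 7.71 to 38.6), such as Rpl11, Rplp0 and Rps10, and housekeeping genes 4 of 20 (20%), such as Tbp and Tfrc, the transferrin receptor, which is also on the erythroid list. Neuronal genes had 2 of 20 (10%), Syn1 and Tubb3. Liver and muscle genes had none of 20 each, which at this list size allows a share of up to 16.8%. Gene length moved with the count over all genes, from 9.62% with a hub in the shortest 25% of genes to 24.1% in the longest, and its part in the lists was not tested.

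**Figure D4:**
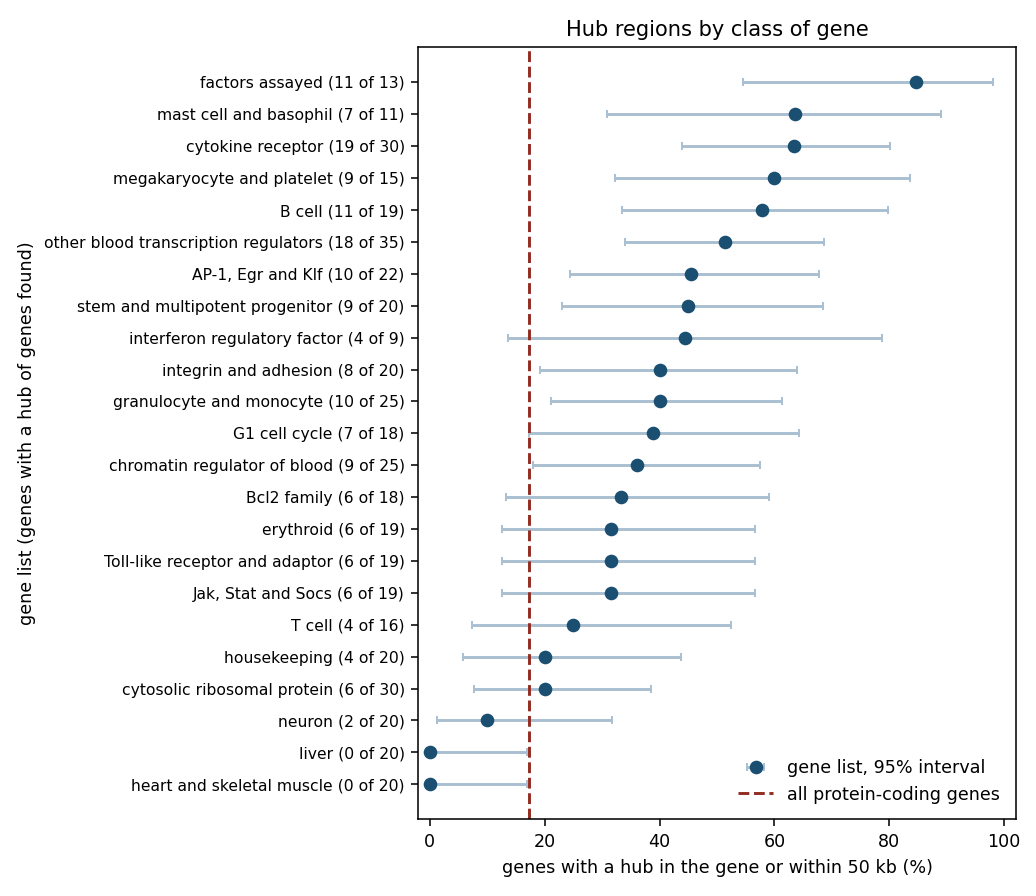
Share of each gene list with a hub in the gene or within 50 kb (horizontal axis, percent, points with exact 95% intervals) for the 23 lists (vertical axis), with a dashed line at the 17.3% of all protein-coding genes. The factor genes stand highest at 84.6%, and the liver and muscle lists are at 0.

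Promoters of low CpG content made up most of those met by hubs. Of the 32619 promoter windows 154 (0.472%) overlapped a hub, and they belonged to 144 genes, 83 of them protein-coding, and 141 hubs (4.98% of all hubs). Hubs of chromosome 18 are in this percentage, although that chromosome and part of the protein-coding genes had no window. CpG content was taken as the observed number of CG pairs over that expected from the C and G content of the window, a ratio that is low in most tissue-restricted promoters and high in CpG islands. Its median was 0.320 in windows met by hubs, against 0.733 with 7 to 9 factors, 0.816 with 4 to 6, 0.779 with 2 to 3, 0.676 with 1 and 0.268 with no peak. Below 0.4 were 96 hub windows (62.3%, 54.2 to 70.0), against 27.7%, 12.4%, 15.5% and 26.4% in the classes of decreasing factor number, 66.4% with no peak and 51.1% of all windows. In CpG content the hub windows therefore lay nearer to windows with no peak than to those of any class with fewer factors. Among protein-coding windows the shares were 52.8% for hubs (47 of 89), 19.9% with 7 to 9 factors and 56.8% with no peak. The printed windows span the range, from 0.0871 at Mpo and 0.330 at Cbfa2t3 to 0.966 at Psmc1.

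**Figure D5:**
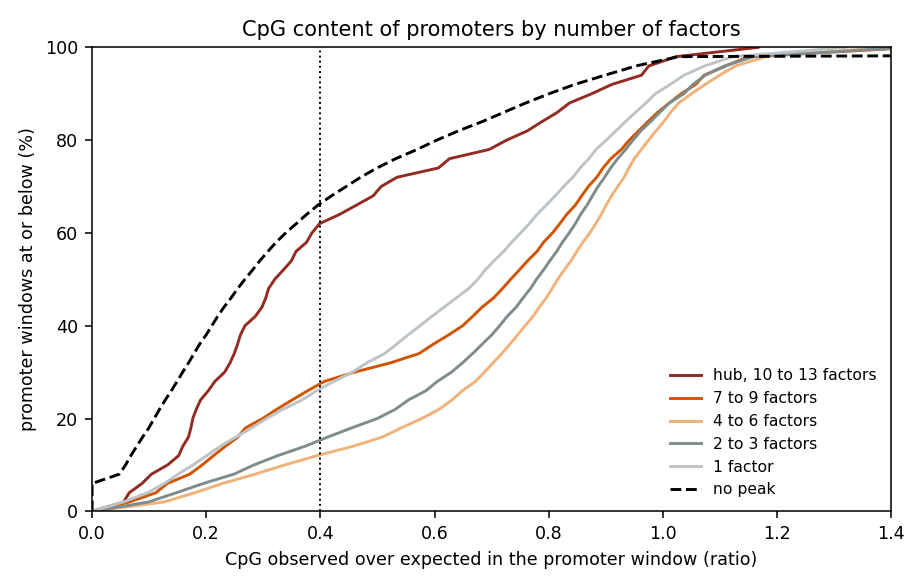
Cumulative share of promoter windows in percent (vertical axis) at or below a given CpG observed-over-expected ratio (horizontal axis), by the number of factors in the region that the window overlaps, with a dotted line at 0.4. The hub line reaches 62.3% at 0.4, near the 66.4% of windows with no peak and above the 12.4% to 27.7% of the other classes.

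Motifs were counted in promoter windows on both strands, each as letters with no mismatch. GAGGAAG, which contains GGAA, occurred in 31.2% of hub windows (24.0 to 39.1), against 13.4% of all windows, and in 41.8% of the 91 windows that held the hub midpoint. The Runx letters TGTGGT or TGCGGT occurred in 38.3% of hub windows (30.6 to 46.5), against 22.3% of all. These were the motifs whose shares stood farthest above those of all windows. CAGCTG, which is a form of CANNTG, was in 24.7% against 16.4%, C/EBP letters (TTGCNNAA or TTNCGNAA, forms that overlap) in 18.2% against 12.4%, Meis letters TGACAG in 24.0% against 18.9%, and Gfi letters AAATCA in 20.1% against 13.96%. Gata letters AGATAA or TGATAA were in 17.5% of hub windows and 18.6% of all. The short GGAA and CANNTG were common everywhere, in 98.1% and 81.2% of hub windows and in 96.0% and 72.3% of all. Base composition moved with these counts, and among windows of low CpG content alone GAGGAAG was in 37.5% of hub windows against 14.3% of all, the Runx letters in 40.6% against 23.8%, and the Gata letters in 21.9% against 27.2%. In these low-CpG windows the C/EBP letters were in 15.6% of hub windows against 14.3%, the Gfi letters in 19.8% against 19.3%, and CANNTG in 81.2% against 81.5%, so that these stood close to the share of all. There CAGCTG was in 27.1% of hub windows (18.5 to 37.1) against 18.4%, and TGACAG in 29.2% (20.3 to 39.3) against 21.9%.

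Of 1005 hairpins 44 (4.38%) had a hub within 10 kb, 7 of these within 1 kb, and 176 (17.5%) within 50 kb. Of protein-coding genes 7.98% had a hub within 10 kb and 17.3% within 50 kb. These counts include the gene body, with a median of 17.3 kb, whereas hairpins are far shorter, so the shares are not directly comparable. Among the shortest 25% of genes, with a median of 2.36 kb, 9.62% had a hub within 50 kb. Neighbouring hairpins can share a hub. The Mir23a, Mir27a and Mir24-2 genes lay between 2 hubs, 1 of 10 factors 0.531 kb upstream of Mir23a, which lacked Gata2, Gfi1b and Meis1, and 1 of 11 factors 0.296 kb downstream of Mir24-2, which lacked Gata2 and Gfi1. Mir223, a miRNA of the myeloid lineage, had a hub of 10 factors 3.04 kb away that lacked Gata2, Gfi1 and Gfi1b. Mir142, a miRNA of all blood lineages, had a hub of 12 factors 5.08 kb away that lacked only Gfi1b, the same hub that lay 42.0 kb from Mpo. Hubs also lay 4.25 kb from Mir26b, 8.24 kb from Mir34a and 9.01 kb from Mir21a.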

How the data were processed

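The deposited files are peak lists with 3 columns and no header: chromosome, start and end, all of unit other (positions), with no count, score or signal. Per the submitters' processing notes the tools were Bowtie2, MACS2 and bedtools on mm10 (GRCm38); their versions, roles and thresholds, and whether the IgG library served as a control, are not stated in the sources used here. Peaks that are all 400 bp wide hide the caller's own widths and heights, and a missing peak can mean low depth.

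From the deposited positions, 3 lines off the autosomes and X were left out and touching or overlapping peaks were merged. Gene bodies, promoters and miRNAs came from RefSeq tables of GRCm38.p6. Distances were taken from region midpoints, and "locus" is the gene with 50 kb on either side. Of 465 listed genes 463 were found (not Ahsp and Tpsab1). Named were the 13 factor genes, the 25 genes nearest to most hubs, 3 leading genes per list, the 5 largest clusters, the 10 smallest hubs with all factors, and the promoters of the hubs with most factors, ties by name; some genes that this rule picks are not reported here. Members and lists were chosen with earlier results of these data known; gene families, the extra promoters, the miRNAs, the tightest stretches and other genes named as examples were chosen after values were seen. Scripts (Python 3.11.15, numpy 2.4.6, pandas 2.3.3, scipy 1.17.1, matplotlib 3.10.9) were tested on simulated data.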

Additional observations from a re-analysis of the deposited data

How the results depend on the processing

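No paired analysis was possible because each factor had 1 library, so that the groups share fewer than 2 replicate numbers. The number of hubs, 2831, became 4409 at 9 or more factors, 1545 at 11 or more and 986 with the first 50% of each list. Leaving out 1 list at a time gave 1553 to 2779: it fell over 1.5 times without Lmo2 (1553), Fli1 (1559), Tal1 (1573), Cebpb (1597), Cebpa (1645), Lyl1 (1653), Spi1 (1668), Runx1 (1754) or Erg (1847), with the limit still at 10 of the 12 lists left. The share near a gene end, 6.25%, became 4.24% at 0.5 kb, 10.8% at 2 kb, 20.3% at 5 kb and 7.28% at 9 or more factors. The share inside a gene became 62.3% with all RefSeq genes. The share with a neighbour, 40.8%, became 15.7% at 10 kb, 28.5% at 25 kb, 53.2% at 100 kb, 51.9% at 9 or more factors, 26.7% at 11 or more and 37.3% when joined peaks had midpoints within 100 bp. It ran from 26.6% (without Tal1) to 40.4% (without Gata2), with 26.9% without Fli1, 26.98% without Lmo2 and 27.04% without Lyl1. Genes with a hub, 17.3%, became 7.98%, 11.7% and 27.1% with flanks of 10, 25 and 100 kb, 9.26% by nearest gene, 25.1% at 9 or more factors and 10.3% at 11 or more. In windows holding the hub midpoint GGAA was in 100% and GAGGAAG in 41.8%, and the low-CpG share was 52.8% in protein-coding windows; these window alternatives were chosen after seeing the data. Gata2 was the factor most often absent under the 3 alternatives run for it (overlap of 200 bp, midpoints within 100 bp, first 50% of lines). Lists above the share of all genes numbered 20 of 23, and 17 to 20 under the alternatives. These shares shift with the definition. Another limit on factors or a list left out also changes the number of hubs that can be neighbours. The part of that number in the neighbour share was not tested, nor was the cause of the other shifts. Sequence windows at hubs outside promoters were not run, since no genome of the build was used. Unknown depth limits every statement on absent peaks.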

Other observations

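Families of genes taken by the start of their symbols, picked after the values were seen, differed in the share with a hub in the gene or within 50 kb, against 17.3% of all protein-coding genes. Lectin receptor genes (Clec) had 16 of 33 (48.5%), and 5 of 11 Dock genes, exchange factors of Rac and Cdc42, did (45.5%). Arhgap genes had 12 of 34 (35.3%), and genes named Cd 35 of 100 (35.0%). Dusp phosphatases had 8 of 24 (33.3%), interleukin and interleukin receptor genes 23 of 83 (27.7%), Rab genes 19 of 69 (27.5%) and solute carriers 83 of 375 (22.1%). Zfp zinc-finger genes had 42 of 397 (10.6%) although Zfp608 stands among the leading genes. Keratins had 2 of 53 (3.77%), olfactory receptors 38 of 1110 (3.42%) and vomeronasal receptors 2 of 353 (0.567%). Members of the Clec, olfactory and vomeronasal families lie in tandem arrays, so that 1 hub counts for several genes.

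Promoters met by hubs also included those of leukocyte genes such as Trem1, Hcls1 and Klhl6, each with 12 factors and Gata2 missing, and that of Wdr5, a chromatin adaptor of wide expression, where Meis1 was the missing factor. At Ctsg, cathepsin G of neutrophil granules, 1 of the 4 hubs lacked only Spi1.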
